A study of Mus musculus with 12 samples.

Results

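The genes described here encode the proteins of the cell's own ribosome and of the mitochondrial ribosome, measured in mouse spleen. Members were chosen by gene symbol: Rpl or Rps followed by a digit, Rplp, Rpsa, Mrpl or Mrps, without the Rps6k kinases and pseudogenes, on probe sets that carry 1 symbol. Of 96 such genes on the array, 87 reached a scaled signal of 100 on at least 2 arrays and were tested, 28 of 35 cytosolic and 59 of 61 mitochondrial, among 6539 gene symbols and 8926 probe sets tested in all. Each gene was read from its brightest probe set. Total spleen RNA of each sample was hybridised to 1 Affymetrix array, with 2 arrays (a and b) for each of 6 groups: females and males at 3-4, 6-9 and 24-28 weeks of age. The design text places these ages before, at and after puberty and asks how the sexes compare at each. No treatment, genotype or strain is given in the sources used here, and the labels do not tell whether arrays a and b are different animals. P-values therefore reflect only how far the 2 hybridisations of a group lay apart, a spread that may be technical.

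A ribosome has a small subunit, which reads the messenger RNA, and a large subunit, which joins the amino acids. Cytosolic ribosomal proteins are made in step with one another and are among the most abundant transcripts of a dividing cell; many of their messengers start with a run of pyrimidines that places their translation under growth control. The mitochondrial ribosome makes only the few respiratory-chain proteins encoded by mitochondrial DNA, and all of its proteins are encoded in the nucleus and imported. The spleen holds lymphocytes and, in the mouse, also forms red cells and granulocytes, cells that divide and mature at different rates.

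Signals below are the deposited MAS5 intensities after each array was scaled to a trimmed mean of 500. Differences are on the log2(signal + 32) scale, where 1 is a 2-fold ratio for a bright gene and low genes are understated. A gene is called where limma's adjusted p, taken over all 8926 probe sets, was below 0.05. The number of arrays, 12, limits the precision. Markers of B cells were detected for 11 of 12 listed genes and of T cells for 13 of 15, in keeping with the label spleen. Of 29 pancreas markers 20 were detected too. Their summed signals were 61619.5 to 65190.5 in females at 6-9 weeks and 195922 to 199030.0 in females at 24-28 weeks. In males the pancreas sums were 105508 to 146856 at 6-9 weeks and 134370 to 138464 at 24-28 weeks. Correlations ran from 0.964 to 0.970 between the arrays of a group and from 0.873 to 0.960 across groups. Replicate b of males at 6-9 weeks stood apart at the bright end: its brightest deposited signal was 28490.1, against 44638.7 or more on the other arrays.

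Cytosolic ribosomal proteins were the brightest of the members. The X-linked Rps4x had a mean signal of 25946 over the 12 arrays, Rplp0, the base of the stalk that recruits elongation factors, 24462, and 16 of the 28 cytosolic genes had a mean of 10000 or more. The mitochondrial class ran from 101 for Mrps16 to 5208 for Mrpl18. These are signals of different probe sets, so they do not rank the genes by abundance. The lowest means among the cytosolic genes belonged to Rpl39l (83.5) and Rpl38 (95.6).

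The question of age was first put to the step from 6-9 to 24-28 weeks, averaged over the sexes, where mitochondrial ribosomal proteins were called most often. Of 59 mitochondrial genes, 33 rose and 4 fell, with a median difference of 0.39, while 15.9% of all tested probe sets rose, 28.8% fell and their median was -0.15. Among the 3620 probe sets at least as bright as the lower quartile of the class, 30.7% rose and 34.1% fell (median -0.033). The share of the class that was called in either direction, 62.7%, lay near the 64.8% of these equally bright probe sets, and its calls were mostly rises. Split by symbol alone, 12 of 21 Mrps genes rose and 1 fell, against 21 and 3 of 38 Mrpl genes. For 25 of the 59 genes, all 4 arrays at 24-28 weeks lay above all 4 at 6-9 weeks, as did 10.6% of all probe sets and 20.5% of the equally bright ones. Leaving out 1 array at a time gave 30 to 37 called genes against 37 with all arrays.

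**Figure D1:**
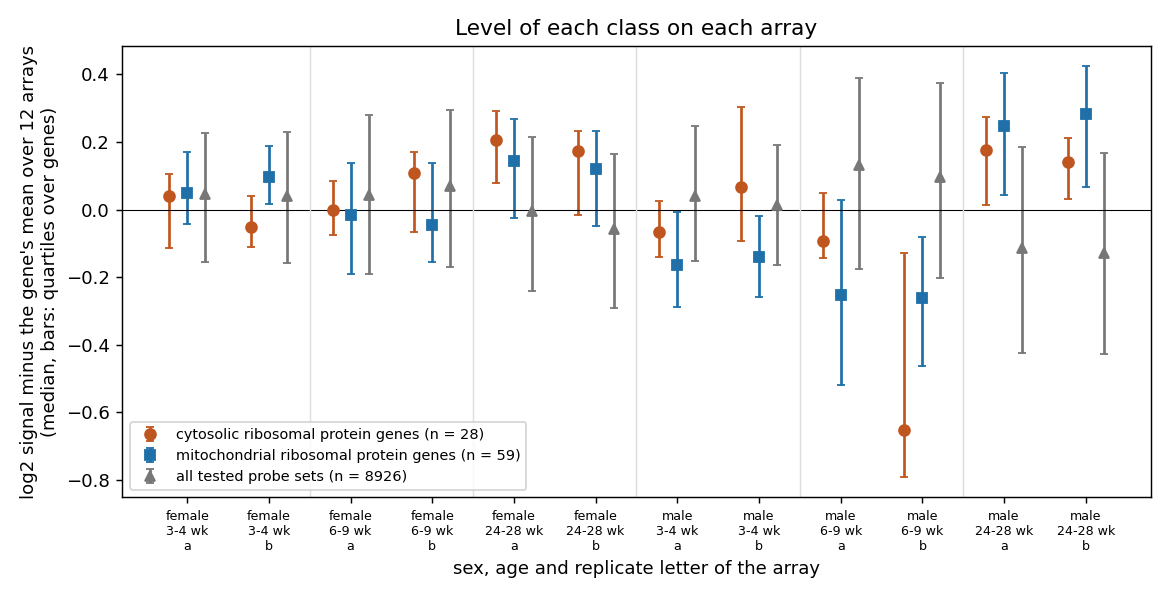
For each of the 12 arrays (horizontal axis), the points show the median over the genes of a class of the log2 signal minus the gene's own mean over 12 arrays (vertical axis), and the bars show the quartiles over genes; grey triangles are all 8926 tested probe sets. The mitochondrial class lies highest on the male arrays at 24-28 weeks (0.25 and 0.28) and lowest on the male arrays at 6-9 weeks (-0.25 and -0.26), while the cytosolic class has 1 low array, male 6-9 weeks b, at -0.65.

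Mrpl41 (probe set 99185_at), a large-subunit protein special to mitochondria, gave signals of 562 and 688 at 3-4 weeks, 586 and 680.3 at 6-9 weeks and 899.8 and 952 at 24-28 weeks in females, and 551 and 612, 371 and 352, and 1403 and 1269.5 at the same ages in males. The male arrays at 24-28 weeks were the highest and those at 6-9 weeks the lowest, and in both sexes the oldest group did not overlap the other ages. It rose by 1.16 ± 0.093 (SE) with an adjusted p of 1.67e-06. Mrpl18 (93787_f_at), a large-subunit protein of the family that binds 5S RNA in other ribosomes, gave 5193 and 5255 at 3-4 weeks, 3491 and 3859 at 6-9 weeks and 5902 and 5848 at 24-28 weeks in females, and 4407 and 5234, 2680.4 and 3682, and 8135 and 8805 at the same ages in males. All 4 arrays at 6-9 weeks lay below the other 8, and the gene rose by 1.05 ± 0.10 (SE), adjusted p = 5.46e-06; its other probe set, 93786_i_at, rose by 1.09. Mrpl20 (94875_at), a large-subunit protein that binds ribosomal RNA, gave 723 and 758 at 3-4 weeks, 623 and 597 at 6-9 weeks and 882 and 931 at 24-28 weeks in females, and 626 and 682, 559 and 573, and 1149.6 and 1088 at the same ages in males. Its groups at 24-28 weeks were the highest in each sex, and it rose by 0.75 ± 0.074 (SE) with an adjusted p of 8.66e-06. Smaller rises included Mrpl21 (0.73), Mrps14 (0.47), Mrpl44 (0.61), a protein with an RNase III fold, and Mrpl58 (0.51), a peptidyl-tRNA hydrolase built into the large subunit.

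The 4 mitochondrial genes that fell were Mrpl4, Mrpl45, Mrps2 and Mrpl38. Mrpl4 (95736_at), whose bacterial counterpart lines the exit tunnel for the growing chain, gave 807 and 742 at 3-4 weeks, 1068 and 965 at 6-9 weeks and 693 and 811 at 24-28 weeks in females, and 779 and 780.0, 1262 and 1246, and 544 and 598 at the same ages in males. The groups at 6-9 weeks were the highest in each sex and the males at 24-28 weeks the lowest of all. It fell by 0.76 ± 0.081 (SE), adjusted p = 1.44e-05. Mrpl45, which anchors the ribosome to the inner membrane, gave 620.1 and 452 at 3-4 weeks, 560.4 and 834 at 6-9 weeks and 544 and 468 at 24-28 weeks in females, and 599 and 543, 625 and 833, and 362 and 417 at the same ages in males. Its males at 24-28 weeks were the lowest, and females at 6-9 weeks overlapped those at 3-4 weeks. The difference was -0.63 ± 0.15 (SE), adjusted p = 0.00461, and its other probe set, 100886_f_at, also fell (-0.26). Mrps2, a small-subunit protein near the limit of detection (mean signal 155), differed by -0.54 ± 0.17 (SE). Mrpl38 differed by -0.26 ± 0.083 (SE), adjusted p = 0.0213, and was not called after quantile normalization (adjusted p = 0.124) or cyclic loess (0.123), nor without female 6-9 weeks a (0.0508) or b (0.0573), female 24-28 weeks b (0.072), male 6-9 weeks a (0.0579) or male 24-28 weeks a (0.093).

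Averaged over the sexes, markers of several cell types moved in the same step. In it 14 of 19 proliferation, 10 of 11 erythroid, 11 of 13 neutrophil and 17 of 20 pancreas markers rose, and 9 of 11 B cell markers fell. The sexes were not alike in this. Within females 0 neutrophil markers rose and 4 fell, and within males 12 rose and 0 fell. Of the pancreas markers 18 rose and 1 fell within females, and 4 rose and 7 fell within males. In whole spleen fewer cells of a type cannot be told apart from less RNA per cell. Summed signals of 19 tested proliferation markers, of 22 listed, were 22163 to 22940.0 in males at 6-9 weeks and 60245 to 61445 in males at 24-28 weeks. In females they were 55232 to 55343, 30271 to 32145 and 38213 to 38414 at the successive ages, and 46398 to 48665 in males at 3-4 weeks. Erythroid markers, 11 of 16, summed to 11146 to 17578 in males at 6-9 weeks, 40448 to 44724 in males at 24-28 weeks and 25928 to 36829 over the female arrays. Neutrophil markers, 13 of 14, reached 108540.0 to 113297 in males at 24-28 weeks, against 48286 to 52287 in males at 3-4 weeks and less elsewhere. In the same males at 24-28 weeks B cell markers summed to 20087 to 20321 and T cell markers to 2772 to 2889, the lowest of the 6 groups; in males at 6-9 weeks these sums were 38365 to 41412 and 8596 to 8639. The ratio of the 3' to the 5' beta-actin control probe set was 0.333 to 0.376 in males at 6-9 weeks, 2.39 to 2.62 in males at 24-28 weeks and 0.574 to 1.37 in the other groups. For Gapdh this ratio was 1.06 to 1.38 in males at 6-9 weeks, the lowest of the 6 groups. In males at 24-28 weeks it was 2.30 to 2.37, within the 1.63 to 2.92 of the other groups. The part of these cell types and of RNA quality in the ribosomal protein differences was not tested.

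**Figure D2:**
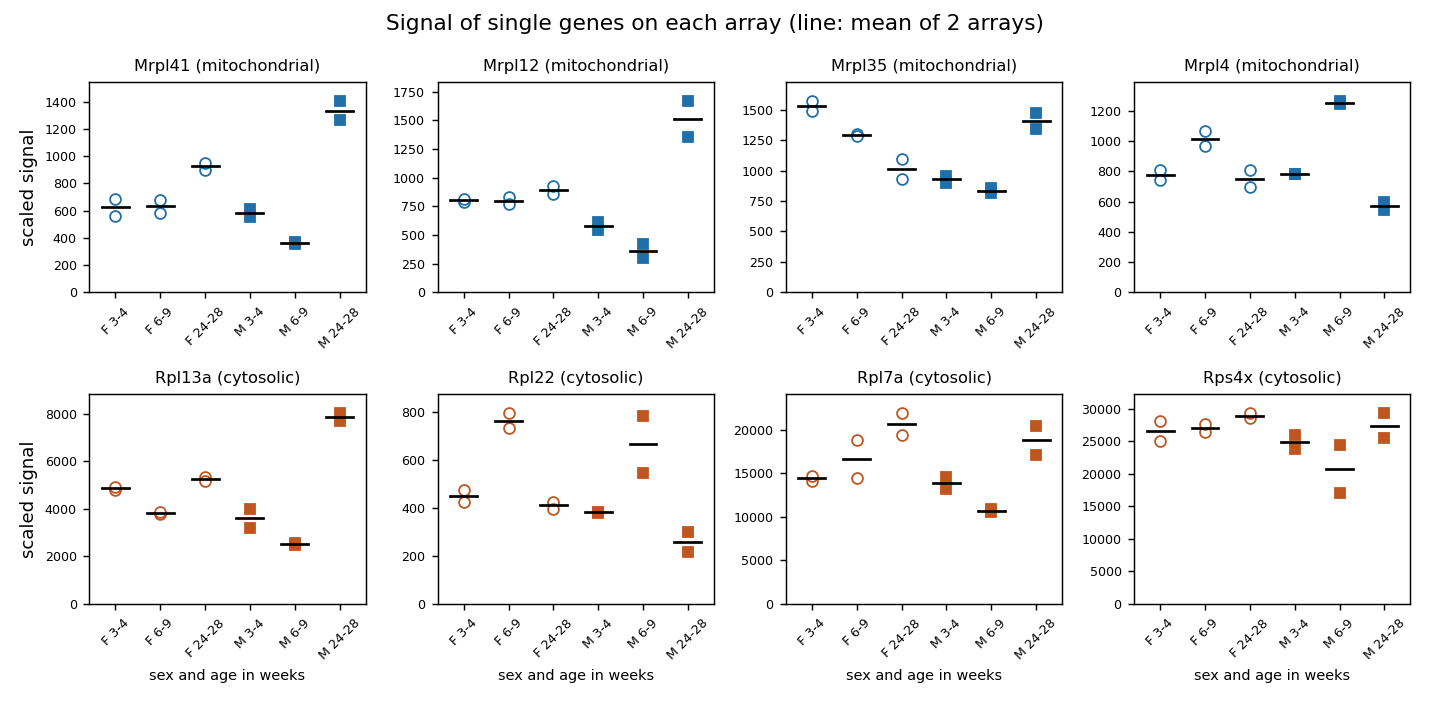
Scaled signal (vertical axes, from 0) on each array for 8 genes, by sex and age in weeks (horizontal axes); open circles are females, filled squares males, and lines the means of 2 arrays. Mrpl41 and Mrpl12 peak in males at 24-28 weeks, Mrpl4 and Rpl22 peak at 6-9 weeks, and Rpl13a runs from 2494 in males at 6-9 weeks to 8024 in males at 24-28 weeks.

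The cytosolic class also lay higher at 24-28 than at 6-9 weeks, but the size of that shift depended on 1 array and on the scaling. With all arrays, 10 of 28 genes rose and 3 fell (median 0.33), beside 15.9% and 28.8% of all probe sets. Of the 2104 probe sets at least as bright as the lower quartile of the cytosolic class, 39.4% rose and 29.6% fell (median 0.10), so the cytosolic share of rises, 35.7%, was not above that of bright probe sets. All 4 arrays at 24-28 weeks lay above all 4 at 6-9 weeks for 6 of the 28. Without replicate b of males at 6-9 weeks 8 rose and 3 fell (median 0.17). On replicate b of males at 6-9 weeks the class median was 0.65 log2 units under the genes' means, and 19 of 28 genes had their lowest signal there; on replicate a of the same group the median was -0.09. The dip followed brightness. The 16 cytosolic genes with a mean signal of 10000 or more had a median of -0.71 on that array and the other 12 cytosolic genes a median of -0.026, while the 102 other probe sets as bright as the former, which are no ribosomal protein genes, had a median of -0.56, with 8 of 102 above their own mean. From 6-9 to 24-28 weeks those 102 bright probe sets had a median of 0.36 and the 16 bright cytosolic genes 0.35. Quantile normalization, which gives every array the same distribution, and cyclic loess, which removes trends with brightness between pairs of arrays, moved the class median on that array to -0.094 and -0.13 and the age difference to 0.057 (3 rose, 1 fell) and -0.053 (3 rose, 4 fell). The same scalings moved the median of all tested probe sets from -0.15 to 0.0081 and 0.016 and the share of calls that were rises from 35.5% to 48% and 50%. For the mitochondrial class they gave medians of 0.48 (36 rose, 3 fell) and 0.52 (37 rose, 3 fell). Leaving out male 6-9 weeks a raised the cytosolic calls from 13 to 23, whereas leaving out female 6-9 weeks a, female 24-28 weeks a or female 24-28 weeks b left 7 and leaving out male 24-28 weeks a left 6.

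**Figure D3:**
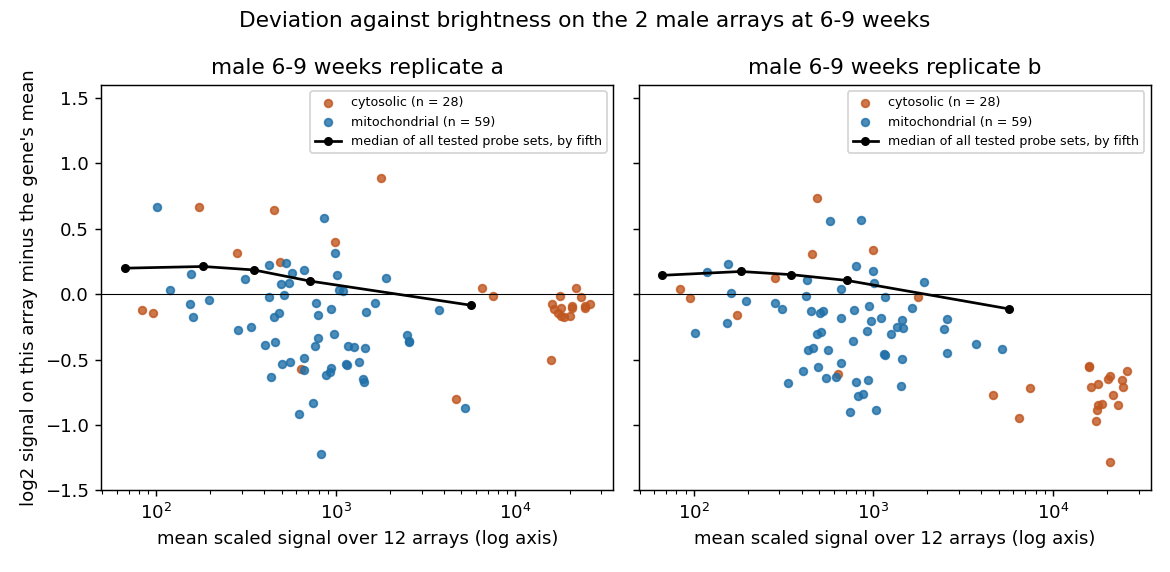
Deviation of each ribosomal protein gene from its own mean on the 2 male arrays at 6-9 weeks (vertical axis, log2) against its mean scaled signal over 12 arrays (horizontal, log axis); the black line joins the medians of all tested probe sets in 5 bands of brightness. On replicate a the bright cytosolic genes lie near -0.10, and on replicate b they lie near -0.71, with the mitochondrial genes in the same range on both arrays.

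2 cytosolic genes changed by more than 1 log2 unit, in opposite directions. Rpl13a (92834_at), a large-subunit protein that also represses inflammatory messengers when released from the ribosome, gave 4787 and 4926 at 3-4 weeks, 3790.2 and 3871 at 6-9 weeks and 5337 and 5149 at 24-28 weeks in females, and 3988 and 3201, 2494 and 2549.9, and 8024 and 7700.1 at the same ages in males. In each sex the lowest arrays were those at 6-9 weeks, the highest those at 24-28 weeks, and no 2 of these groups overlapped. It rose by 1.04 ± 0.073 (SE), adjusted p = 6.06e-07, and was called under every scaling and with any 1 array left out. Rpl22 (92857_at), a large-subunit protein needed for the development of alpha-beta T cells in mice, gave 475 and 423 at 3-4 weeks, 794 and 731 at 6-9 weeks and 424 and 396 at 24-28 weeks in females, and 384 and 379, 547 and 780.4, and 218 and 298 at the same ages in males. Both sexes peaked at 6-9 weeks. It fell by 1.05 ± 0.13 (SE), adjusted p = 4.57e-05, in the same step in which 11 of 13 T cell markers fell and 1 rose; the part of T cells in this fall was not tested. A second Rpl22 probe set, 92856_at, with a mean signal of 215, differed by -0.16 and was not called.

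The other cytosolic rises were smaller. Rpl7a, a large-subunit protein, gave 14144 and 14745 at 3-4 weeks, 18794 and 14513 at 6-9 weeks and 21923 and 19380.5 at 24-28 weeks in females, and 14624 and 13161, 10904 and 10534, and 17161 and 20414 at the same ages in males. The males at 6-9 weeks were lowest. It rose by 0.56 ± 0.10 (SE), but was not called after quantile normalization (adjusted p = 0.0906) or cyclic loess (0.264). Rpl7l1, a paralog of Rpl7 with a role in ribosome assembly, gave 602 and 554 at 3-4 weeks, 688 and 674 at 6-9 weeks and 753 and 851 at 24-28 weeks in females, and 615 and 479, 406 and 395, and 768 and 883 at the same ages in males. It was lowest in males at 6-9 weeks and rose by 0.60 ± 0.10 (SE). Rplp0 rose by 0.36, Rpl10a by 0.39, Rpl7 by 0.34, Rps10 by 0.33, Rps3 by 0.44, Rpl19 by 0.42 and Rps18 by 0.42. Each of these genes had its lowest signal on male 6-9 weeks b, such as Rps18 with 12518 there and 22190 on a. In females alone they were not called. Most cytosolic rises were lost after either other scaling, as given above. Of the small-subunit genes, Rps4l and Rps27 fell. Rps4l, a close relative of Rps4x read by a probe set of the s type that can bind related transcripts, differed by -0.49 ± 0.13 (SE); it was not called on its plain probe set or after either other scaling (adjusted p from 0.101 to 0.808). Rps27, a zinc-finger protein of the small subunit, gave 869.8 and 943 at 3-4 weeks, 938 and 1080.0 at 6-9 weeks and 918 and 1161 at 24-28 weeks in females, and 989 and 957, 1301 and 1248, and 665 and 847 at the same ages in males. Males at 6-9 weeks were the highest and males at 24-28 weeks the lowest, whereas the female groups overlapped. The averaged difference was -0.35 ± 0.10 (SE), adjusted p = 0.0134. It was not called after quantile normalization (0.0602) or cyclic loess (0.0648), nor without female 6-9 weeks b (0.0569), female 24-28 weeks a (0.0561) or male 24-28 weeks a (0.0603).

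Within each sex, the step from 6-9 to 24-28 weeks was read from 2 arrays against 2. In males 33 of 59 mitochondrial genes rose and 3 fell (median 0.49), beside 15.7% and 28.3% of all probe sets and 30.7% and 34.7% of those as bright as the class. In females 13 rose and 5 fell (median 0.17), beside 8.36% and 13.8% of all and 16.9% and 20.7% of those as bright. The largest male differences were Mrpl12 (1.97), Mrpl41 (1.80), Mrps25 (1.48) and Mrpl18 (1.42), and the largest female ones Mrpl3 (0.91), Mrpl58 (0.69), Mrpl48 (0.68) and Mrpl18 (0.67). Mrpl35 and Mrpl51 rose in males (0.73 and 0.47) and fell in females (-0.35 and -0.40). Of the cytosolic genes, 15 rose and 3 fell in males (median 0.54), and 1, Rpl13a, rose and 1, Rpl22, fell in females (median 0.11). Of probe sets as bright as the cytosolic class, 39.7% and 30.8% rose and fell in males and 22.7% and 19.3% in females. The male step rests in part on male 6-9 weeks b, the low array described above. The 16 cytosolic genes of 10000 or more held 13 of the male rises (median 0.59). The 102 other probe sets as bright had a male median of 0.55, and the 12 dimmer cytosolic genes -0.040. Whether the sexes differ in this step was tested gene by gene, through the change of the sex difference with age given below.

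**Figure D4:**
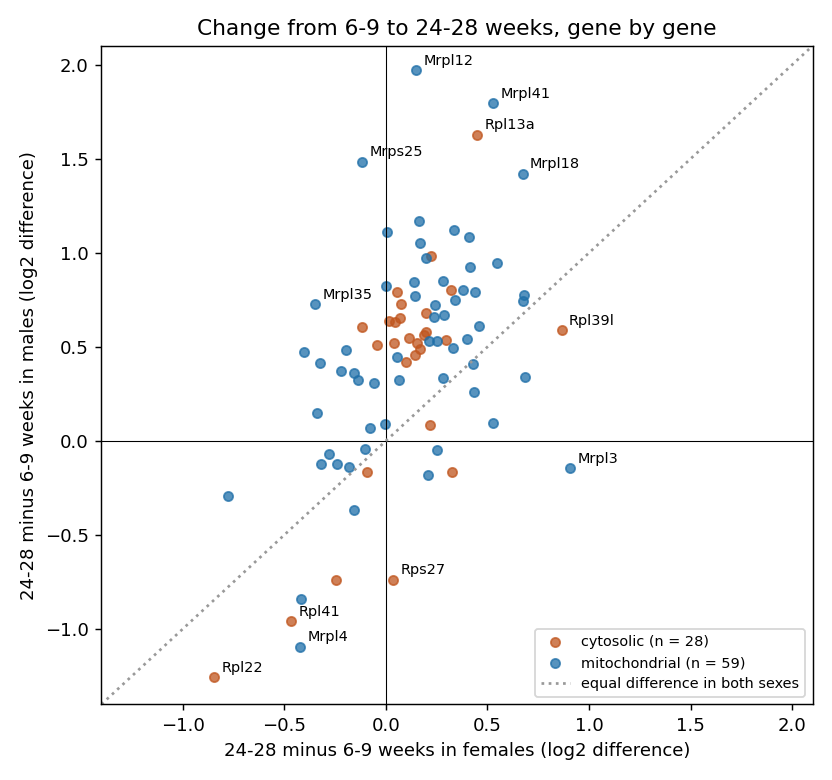
Each point is 1 ribosomal protein gene, with its log2 difference between 24-28 and 6-9 weeks in females (horizontal axis) and in males (vertical axis); the dotted line marks an equal difference. Most mitochondrial genes lie above the line, with Mrpl12 at 0.15 in females and 1.97 in males, and Rpl22 and Mrpl4 lie low in both sexes.

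Between 3-4 and 6-9 weeks, averaged over the sexes, 11 of 59 mitochondrial genes fell and 3 rose (median -0.15), while 11.2% of all probe sets fell and 14.2% rose and, of those as bright as the class, 21.2% and 21% did. Mrpl48, a large-subunit protein read by a probe set of the f type, gave 1595 and 1619 at 3-4 weeks, 1036 and 858 at 6-9 weeks and 1724 and 1358 at 24-28 weeks in females, and 1529.8 and 1487, 1053 and 1227, and 2080.3 and 1863 at the same ages in males. It differed by -0.57 ± 0.095 (SE). Its 4 arrays at 6-9 weeks were the lowest 4 of the 12. Mrpl18 (-0.56), Mrpl28 (-0.53) and Mrps28 (-0.45) fell as well, and Mrpl41, Mrpl20 and Mrpl21, which rose at the next step, also fell here (-0.31, -0.23 and -0.32). These comparisons share the arrays at 6-9 weeks. The rises were Mrps21 (0.54 ± 0.064 (SE)), Mrpl4 (0.52 ± 0.081 (SE)) and Mrpl36 (0.34 ± 0.094 (SE), adjusted p = 0.0196); Mrpl36 was not called after cyclic loess (0.0611) or without female 3-4 weeks a (0.0541), female 6-9 weeks a (0.0698), male 3-4 weeks b (0.0624) or male 6-9 weeks a (0.0607). Among cytosolic genes Rpl22 rose (0.73 ± 0.13 (SE), adjusted p = 0.00162) and Rpl13a fell (-0.42 ± 0.073 (SE), adjusted p = 0.00143); without male 6-9 weeks a, 16 fell and 1 rose. Of probe sets as bright as the cytosolic class, 20.5% and 26.3% rose and fell. The cytosolic median was -0.13, and 0.032 after cyclic loess. Within females 1 mitochondrial gene rose and 4 fell and 1 cytosolic gene rose, beside 5.95% and 5.42% of all probe sets; within males 4 and 9 mitochondrial and 2 and 5 cytosolic genes did, beside 9.94% and 9.29%.

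Across the whole interval, from 3-4 to 24-28 weeks, 20 of 59 mitochondrial genes rose and 1 fell (median 0.19), beside 10.3% and 18.4% of all probe sets and 20.6% and 27.5% of those as bright as the class. Mrpl41 rose by 0.85 ± 0.093 (SE), Mrpl12 by 0.74 ± 0.11 (SE) and Mrps14, a small-subunit protein, by 0.52 ± 0.068 (SE). Mrps14 gave 1388 and 1342 at 3-4 weeks, 1314 and 1408 at 6-9 weeks and 1703 and 1913 at 24-28 weeks in females, and 1151 and 1184, 1309 and 1199, and 1852 and 1819.7 at the same ages in males, with the 4 oldest arrays above the other 8. Mrpl4 fell by 0.24, a call lost in 18 of 24 alternatives (without either male array at 6-9 weeks, for example, adjusted p = 0.0579 or 0.0582). By limma 5 cytosolic genes rose and 0 fell (7 had an unadjusted p below 0.05; median 0.14): Rpl13a (0.62), Rpl7a (0.47), Rpl7l1 (0.51), Rpl10a (0.34) and Rpl39l (1.07). Of probe sets as bright as the cytosolic class, 26.9% and 25.3% rose and fell. Rpl39l reached a signal of 100 on 4 arrays, those at 24-28 weeks, and so was tested only because it was high in that group; its call supports nothing. Without either male array at 6-9 weeks 10 rose, and without female 24-28 weeks b or male 3-4 weeks a 3 rose. The cytosolic median was 0.0075 after quantile normalization and -0.026 after cyclic loess. In males alone 24 mitochondrial genes rose and 1 fell and 4 cytosolic genes rose, beside 9.8% and 15.7% of all probe sets; in females alone 2 mitochondrial genes rose and 3 fell and 2 cytosolic genes rose, beside 6.58% and 9.3%.

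The sexes were then compared at each age. At 3-4 weeks 7 of 59 mitochondrial genes had a lower signal in males and 0 had a higher one (median -0.22; 19 genes had an unadjusted p below 0.05 in either direction), beside 1.22% of all probe sets lower and 1.85% higher, and 2.6% and 3.67% of those as bright as the class. They were Mrps12 (-0.75), a small-subunit protein of the decoding site, Mrpl35 (-0.70), Mrps26 (-0.67), Mrps21 (-0.65), Mrps28 (-0.55), Mrpl38 (-0.51) and Mrpl51 (-0.39). Mrps21 gave 1789.9 and 1992 at 3-4 weeks, 2369 and 2448 at 6-9 weeks and 2081 and 2157 at 24-28 weeks in females, and 1146 and 1248, 2039.9 and 1992, and 1800.2 and 1863 at the same ages in males. Both young males lay below all other arrays (adjusted p = 0.00254). The count of 7 fell to 2 without female 3-4 weeks b or either male array of that age, to 3 without female 3-4 weeks a and to 4 without either female array at 6-9 weeks or female 24-28 weeks b. Of the cytosolic genes 1, Rpl13a, was lower in males (-0.44 ± 0.10 (SE), adjusted p = 0.0438), and that call was lost in 14 of its 23 alternatives. The cytosolic median of 0.028 turned to -0.054 and -0.044 after quantile normalization and cyclic loess. Without either male array at 6-9 weeks 2 cytosolic genes were lower, and 0 were called without female 3-4 weeks b, male 3-4 weeks b, or any 1 array of females at 6-9 weeks or of either sex at 24-28 weeks.

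At 6-9 weeks 12 mitochondrial genes had a lower signal in males and 1 had a higher one (median -0.23), beside 4.91% and 3.66% of all probe sets and 10.8% and 6.71% of those as bright as the class. Mrpl12 (160431_at), the mitochondrial stalk protein, which also binds the mitochondrial RNA polymerase, gave 786 and 818 at 3-4 weeks, 829.5 and 772 at 6-9 weeks and 859.8 and 923 at 24-28 weeks in females, and 616 and 541, 304 and 425, and 1665 and 1358 at the same ages in males. Females were nearly level across ages, whereas males went from the lowest 2 arrays at 6-9 weeks to the highest 2 at 24-28 weeks. The sex difference at 6-9 weeks was -1.09 ± 0.15 (SE), adjusted p = 0.00118. Mrps25 (-1.06 ± 0.17 (SE)) was read by a probe set of the f type and was not called on its plain one (adjusted p = 0.321). Mrpl21 differed by -0.65 ± 0.10 (SE) and Mrpl41 by -0.75 ± 0.13 (SE). The gene higher in males was Mrpl3, a core large-subunit protein, with signals of 901 and 966 at 3-4 weeks, 628 and 565 at 6-9 weeks and 1266 and 1037 at 24-28 weeks in females, and 1112 and 1013, 1207 and 1093, and 1256 and 853 at the same ages in males: females dipped at 6-9 weeks and males did not. Its difference was 0.91 ± 0.16 (SE), adjusted p = 0.00511, and 0.0517 without female 6-9 weeks b. The mitochondrial calls numbered 8 and 7 without female 6-9 weeks a and b. Among cytosolic genes Rpl7l1, Rpl7a, Rps28, Rpl13a and Rps10 were lower in males and 0 were higher (median -0.48), beside 15.3% and 7.84% of probe sets as bright as that class. That count was 20 without male 6-9 weeks a, 3 without female 6-9 weeks b or either male array at 24-28 weeks and 1 without female 6-9 weeks a, and the median was -0.073 and -0.13 after quantile normalization and cyclic loess, with 2 genes lower under each.

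At 24-28 weeks 10 mitochondrial genes were higher in males and 1 lower (median 0.14). Of all probe sets 7.04% and 9.68% were, and 14.2% and 15.6% of those as bright as the class. The share of the class that was higher, 16.9%, thus lay near that of equally bright probe sets. The higher genes were Mrps16 (1.30), Mrpl12 (0.73), Mrps25 (0.54), Mrpl18 (0.52), Mrps11 (0.51), Mrpl41 (0.51), Mrpl35 (0.46), Mrpl16 (0.45), Mrpl51 (0.37) and Mrps28 (0.37), and Mrpl4 was lower (-0.38). At this age Mrps16 read 192 and 126 in males and 44.1 and 44.2 in females. It reached 100 on 6 arrays, mostly of males, and so was tested mainly through them, so that its call supports nothing. The count of 11 was 2 without male 24-28 weeks a, 3 without female 24-28 weeks a, 4 without the b array of either sex at that age, and 7 without any 1 array of females at 6-9 weeks or of males at 3-4 weeks. Without female 24-28 weeks a, 1 of the 3 was lower. Of the cytosolic genes Rpl13a was higher in males (0.58 ± 0.10 (SE), adjusted p = 0.00232) and Rpl22 lower (-0.62 ± 0.18 (SE), adjusted p = 0.0389, lost in 11 of 22 alternatives, among them both other scalings at 0.114 and 0.0823). The cytosolic median was -0.026. Rpl22 lost the call, leaving 1 cytosolic gene, without either female array at 6-9 weeks, female 24-28 weeks b, either male array at 3-4 weeks or male 24-28 weeks a.

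**Figure D5:**
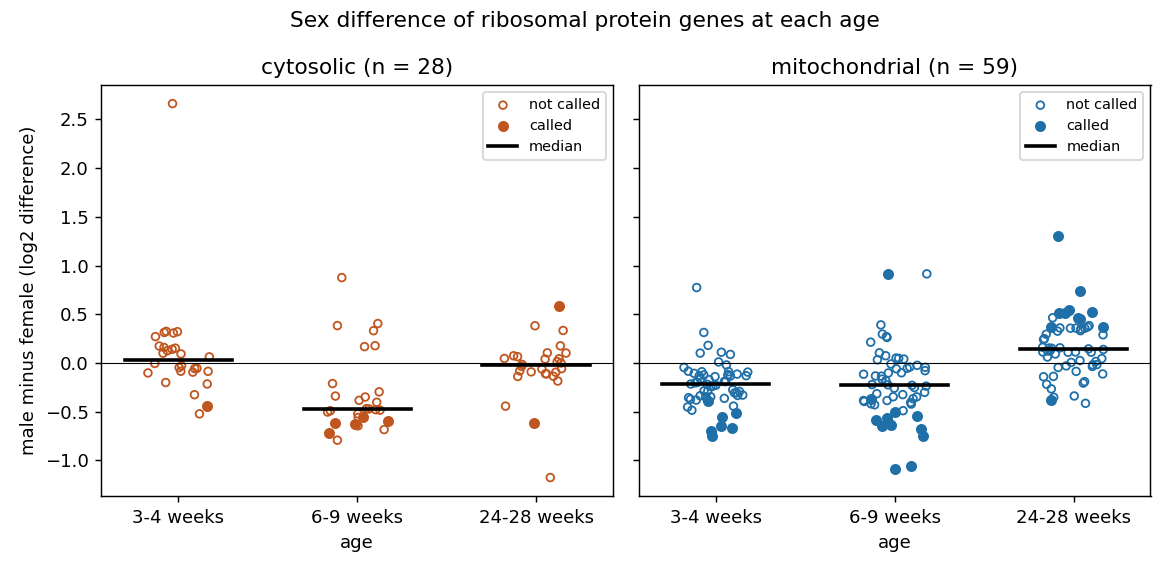
Male minus female difference (vertical axis, log2) of each cytosolic (left) and mitochondrial (right) gene at each age (horizontal axis); filled points have an adjusted p below 0.05 and black lines are class medians. The mitochondrial median is -0.22 at 3-4 weeks, -0.23 at 6-9 weeks and 0.14 at 24-28 weeks; the open cytosolic point at 2.66 is Rpl41, which 1 female array read at 7.9.

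Averaged over the 3 ages, 9 mitochondrial genes had a lower signal in males and 1 had a higher one (median -0.10), beside 5.1% and 3.76% of all probe sets and 10.2% and 7.02% of those as bright as the class. Mrps26 gave 539.7 and 576 at 3-4 weeks, 443 and 459 at 6-9 weeks and 567 and 674 at 24-28 weeks in females, and 309 and 371, 341 and 330.0, and 405 and 512 at the same ages in males. At each age both males lay below both females. Its difference was -0.49 ± 0.09 (SE), adjusted p = 0.00514. Mrps21 (-0.37 ± 0.052 (SE)) and Mrps12 (-0.45 ± 0.085 (SE)) were also lower in males. Mrps12 differed by -0.75, -0.68 and 0.061 at the successive ages, a change called by the moderated F test described below (adjusted p = 0.0324). Its averaged call was lost without the male arrays at 6-9 weeks (limma adjusted p = 0.0711). Mrps16 was the gene higher in males (0.997 ± 0.21 (SE), adjusted p = 0.0123). In females it gave 62.6 and 106 at 3-4 weeks, 37.7 and 45.1 at 6-9 weeks and 44.1 and 44.2 at 24-28 weeks. In males it gave 155 and 171, 161 and 66.7, and 192 and 126 at the same ages. These signals lie at the edge of detection, with 1 female and 5 male arrays above 100. Mrps16 was thus tested mainly through the males, and its call supports nothing. The mitochondrial count of 10 was 6 without either female array at 6-9 weeks and 5 without male 24-28 weeks a. With all arrays 0 cytosolic genes were called by limma, and 7 had an unadjusted p below 0.05; without male 6-9 weeks a 12 were lower in males, without male 6-9 weeks b or male 3-4 weeks a 2, without female 6-9 weeks b or male 24-28 weeks b 1, and without female 24-28 weeks a 1 was higher.

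A moderated F test asked whether the sex difference changed with age. It called 17 of 59 mitochondrial and 3 of 28 cytosolic genes, beside 15.2% of all probe sets. Among probe sets as bright as the classes it called 29% and 36.7%, against 28.8% of the mitochondrial and 10.7% of the cytosolic genes, so neither class was called more often than bright probe sets in general. Mrpl35 (98904_at), a large-subunit protein, gave 1567 and 1487 at 3-4 weeks, 1303 and 1284 at 6-9 weeks and 930.0 and 1096 at 24-28 weeks in females, and 896 and 958, 857 and 815, and 1472 and 1338 at the same ages in males. Female signals went down with each age while the males were lowest at 6-9 weeks and highest at 24-28 weeks, so the sex difference was -0.70, -0.61 and 0.46 at the successive ages (adjusted p = 0.000391). Mrpl51, also of the large subunit, gave 2898 and 2932 at 3-4 weeks, 2719 and 2989.7 at 6-9 weeks and 2131 and 2166 at 24-28 weeks in females, and 2156 and 2272, 1971 and 2034, and 2691 and 2897 at the same ages in males. Its sex difference was -0.39, -0.50 and 0.37 (adjusted p = 0.00083), and no group of males overlapped the females of its age. For Mrpl12 the successive differences were -0.45, -1.09 and 0.73 (adjusted p = 0.000449), and for Mrps28 -0.55, -0.63 and 0.37 (adjusted p = 0.00198). Rpl13a led the cytosolic genes with -0.44, -0.60 and 0.58 (adjusted p = 0.000351). Rpl7l1 (adjusted p = 0.0386) and Rps27 (adjusted p = 0.0474) lay close to the threshold and each lost the call on leaving out 1 array for 10 of the 12 arrays, with adjusted p up to 0.119 and 0.176. The mitochondrial count was 11 without female 6-9 weeks a or male 24-28 weeks a, 10 without male 24-28 weeks b and 9 without female 6-9 weeks b or female 24-28 weeks a. The cytosolic count was 18 without male 6-9 weeks a and 1 without female 3-4 weeks b, either female array at 6-9 weeks, female 24-28 weeks b or male 24-28 weeks a.

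The remaining named genes varied less or were dim. Rps4x, whose relative on the Y chromosome in humans is absent from the mouse, gave 28151 and 25072 at 3-4 weeks, 26436 and 27639.6 at 6-9 weeks and 28568 and 29348 at 24-28 weeks in females, and 23887 and 25918, 24367 and 17115, and 25503 and 29343 at the same ages in males. Male 6-9 weeks b was its lowest array, and no sex comparison called it (averaged difference -0.19 ± 0.092 (SE)). Rplp0 gave 25194 and 22886 at 3-4 weeks, 23922 and 27154 at 6-9 weeks and 25975 and 27543 at 24-28 weeks in females, and 22520.4 and 23718, 22454 and 14750.2, and 29617 and 27806 at the same ages in males, again with its lowest signal on male 6-9 weeks b. Rpl7 gave 20946 and 21796 at 3-4 weeks, 20698 and 20808 at 6-9 weeks and 23067 and 23098 at 24-28 weeks in females, and 19931 and 19864, 19079.7 and 13237, and 24135 and 21608 at the same ages in males. It rose by 0.34 from 6-9 to 24-28 weeks, against 0.60 for its paralog Rpl7l1. Rpl39l, a paralog known from the testis, stayed between 7.03 and 143. It was tested only through the 4 arrays at 24-28 weeks, so that their place above the other 8 supports nothing. Its parent Rpl39, on the X chromosome, reached 84.4 at most and was not tested. Rpl41 ranged from 7.90 to 4038 and was called in no comparison, with an SE of 1.31 for the sex difference at 1 age.

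Near the detection threshold, Rpl38, Mrps5 and Rpl39l were the dimmest genes just inside and Rps14, Rpl35a and Mrpl14 those just outside, with second-highest signals of 135, 136 and 141 against 87.9, 88.7 and 92.2. The other genes left untested were Rpl32, Rpl39, Rps15, Rps20, Rps27l and Mrpl49. Of the tested genes, 13 had more than 1 tested probe set, and in none of the 7 comparisons were probe sets of 1 gene called in opposite directions; from 6-9 to 24-28 weeks their differences had the same sign for 5 of 7 cytosolic and 5 of 6 mitochondrial genes. A further 44 probe sets pair a ribosomal protein gene with another symbol, often a pseudogene, and cannot be assigned to 1 gene. The 27 cytosolic genes found only on such probe sets showed 7 rises and 0 falls by limma in that step, with 11 at an unadjusted p below 0.05 (median 0.27). These 7 are 25.9% of the set, beside 15.9% of all probe sets and 39.4% of those as bright as the cytosolic class. Of the 27, 24 had their lowest signal on male 6-9 weeks b, where their median was -0.70.

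Genes that serve the ribosomes were counted from lists chosen by function, each gene on its brightest probe set. In the step from 6-9 to 24-28 weeks 15.9% of all probe sets rose and 28.8% fell. Brighter probe sets were called more often, as given above, and the lists were not matched for brightness. Of 17 tested genes of mitochondrial translation and mitochondrial DNA expression, 5 rose and 1 fell from 6-9 to 24-28 weeks (median -0.0072). The rises were Ssbp1, which coats single-stranded mitochondrial DNA (1.01), the RNA-binding proteins Slirp (0.84) and Ptcd3 (0.57), Mterf3 (0.36) and the initiation factor Mtif2 (0.23); the isoleucyl-tRNA synthetase Iars2 fell (-0.47). Of 37 cytosolic translation factors, 17 rose and 9 fell (median 0.23), among them Eef1b2 (1.22) and Eif5 (0.93) up and Pabpc1 (-1.12), Eif4b (-1.06) and Eef2 (-0.85) down. Of 54 ribosome biogenesis genes, 12 rose and 14 fell (median -0.12): Nip7 (0.82), Nop10 (0.74) and Nhp2 (0.72) rose, and Bysl (-0.96), nucleolin Ncl (-0.56) and fibrillarin Fbl (-0.35) fell. Of 13 growth regulators of ribosomal protein synthesis, 5 fell and 0 rose by limma, including Yy1 (-1.05) and Myc (-0.46); 8 were not called. The list of ribosomal proteins outside the name rule had 1 of 4 genes tested, and it was not called.

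Promoters were taken from RefSeq (GRCm38.p6) as 250 bases before to 50 after the annotated start, for 24 of 28 cytosolic and 52 of 59 mitochondrial genes. A pyrimidine run at the start, counted as a C followed by 4 or more C or T within 5 bases of the start on the coding strand, was held by 33.3% of cytosolic and 26.9% of mitochondrial genes, 21.2% of all 27025 genes and 23.6% of the genes on this array. The 3 cytosolic windows below, of 80 bases from 60 before the start, belong to called cytosolic genes of both directions that hold such a run, shown in capitals.
Rpl13a (chr7:45128726-45128805, minus strand): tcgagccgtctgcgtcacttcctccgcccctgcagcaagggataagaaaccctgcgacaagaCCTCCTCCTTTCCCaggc
Rpl7a (chr2:26910747-26910826, plus strand): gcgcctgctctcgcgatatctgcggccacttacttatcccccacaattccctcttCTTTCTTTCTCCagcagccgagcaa
Rps27 (chr3:90213629-90213708, minus strand): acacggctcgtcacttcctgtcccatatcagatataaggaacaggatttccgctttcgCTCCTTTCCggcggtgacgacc

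AAGATGGC, the core of the site of YY1, was searched on both strands and found in 16.7% of cytosolic and 17.3% of mitochondrial promoters, against 3.19% of all and 4.61% of array genes. GGAAG, the core of ETS sites, was present in 91.7% and 76.9% against 73.9% and 77.9%, CGCATGCG, a form of the NRF1 site, in 8.33% and 5.77% against 2.07% and 3.71%, and TATAAA in 12.5% and 9.62% against 15.7% and 12.2%. Matches of different motifs may overlap. The windows below, of the same 80 bases, show the first of these in a gene that rose from 3-4 to 6-9 weeks (Mrpl36) and in one with no call from 6-9 to 24-28 weeks (Mrps18a), the NRF1 form in one that rose (Mrpl17) and GGAAG alone of these in Mrpl12; capitals mark the motifs on either strand.
Mrpl36 (chr13:73330949-73331028, plus strand): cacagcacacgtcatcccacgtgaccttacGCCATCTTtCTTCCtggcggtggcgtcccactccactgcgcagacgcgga
Mrps18a (chr17:46110944-46111023, plus strand): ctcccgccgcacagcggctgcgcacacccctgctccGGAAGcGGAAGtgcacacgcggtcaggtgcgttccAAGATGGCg
Mrpl17 (chr7:105811068-105811147, minus strand): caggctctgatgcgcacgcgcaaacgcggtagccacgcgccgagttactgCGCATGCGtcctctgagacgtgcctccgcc
Mrpl12 (chr11:120484577-120484656, plus strand): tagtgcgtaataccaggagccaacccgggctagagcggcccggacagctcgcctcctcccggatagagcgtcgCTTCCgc
A match is a run of letters, not a bound site. Mrps11 and Mrpl46 start next to each other on opposite strands of chromosome 7. Whether they share a promoter was not tested. From 6-9 to 24-28 weeks Mrps11 rose by 0.56 ± 0.10 (SE) and Mrpl46 differed by 0.37 ± 0.15 (SE) (adjusted p = 0.0638), and from 3-4 to 24-28 weeks both rose, by 0.34 and 0.54.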

How the data were processed

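Total RNA of mouse spleen was measured on 12 Affymetrix arrays, 2 for each of 6 groups of sex and age, taken from the labels. The deposited values are linear intensity values of 12488 probe sets, which the submitters' processing notes credit to MAS5; no source used here gives its version, the strain or the animals behind an array. Each array was scaled to a mean of 500 after trimming 2% at each end. Of 12422 non-control probe sets, 8926 reached 100 on at least 2 arrays and were tested as log2(signal + 32). Platform annotation gave 1 symbol for 10833 probe sets and several for 396, and no symbol changed through Entrez identifiers.

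One mean per group was fitted with limma 3.58.1 in R 4.3.3 (lmFit and eBayes with an intensity trend, 6 residual degrees of freedom and 5.43 prior ones). P-values were adjusted by the Benjamini-Hochberg method over all tested probe sets, with a threshold of 0.05; the change of the sex difference with age is a moderated F test. The fit was tested on simulated data with known changes. The letters a and b did not pair arrays across groups (correlations of their deviations from -0.066 to 0.059), so no block was used. Alternatives were other scalings, offsets and filters, no intensity trend, a replicate block, plain probe sets, each array or the male groups left out, and each sex alone.

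The members and gene lists were chosen with earlier results of these data known. Named genes were the 3 called members with the smallest p per class, comparison and direction, the 4 for the F test, X-linked members, paralogs by symbol, stalk proteins and those next to the detection threshold; further examples, the promoters shown and the band of mean signals from 10000 up were chosen after the values were seen.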

Additional observations from a re-analysis of the deposited data

Results flagged for a closer look

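The sex difference changed with age for 17 mitochondrial and 3 cytosolic ribosomal protein genes by limma's moderated F test, which is a test of the difference between the effects of sex at 3 ages; 15.2% of all probe sets were called in it, and 29% and 36.7% of those as bright as the mitochondrial and the cytosolic class, so neither class was called more often than equally bright probe sets. Of the 7 genes with the smallest p in their class, Rpl13a (adjusted p = 0.000351), Mrpl35 (0.000391), Mrpl12 (0.000449), Mrpl51 (0.00083) and Mrps28 (0.00198) were lower in males at 3-4 and 6-9 weeks and higher at 24-28 weeks. Rpl7l1 (adjusted p = 0.0386) was lower in males at 6-9 weeks, by 0.72 on the log2 scale, and differed by 0.04 at 24-28 weeks. Rps27 (adjusted p = 0.0474), read from its dimmer probe set 96301_at, went the other way, at 0.33 and -0.44 for these ages. With 2 arrays a group, no single value could be tested as an outlier within its group. The cytosolic count of 3 was 18 without male 6-9 weeks a, which leaves replicate b, the array that stood apart at the bright end, as the only array of its group.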

How the results depend on the processing

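Over 16 counts of called members and 364 alternatives, 256 counts stayed within 1.5 times the value with all arrays and 108 did not; of 1252 alternatives for 55 named results, 1108 kept direction and call, 143 lost the call and 1 turned. Where a threshold was lost, the cause was not tested. The number called among the 59 mitochondrial genes from 6-9 to 24-28 weeks stayed within 1.5 times in every alternative except females alone.

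Counts are given as cytosolic, then mitochondrial, where both moved. After quantile normalization the cytosolic calls for sex were 1 averaged over ages, 2 at 3-4, 2 at 6-9 and 1 at 24-28 weeks, with 7 mitochondrial at the last age, and 4 cytosolic from 6-9 to 24-28 weeks. After cyclic loess the cytosolic calls for sex were 1 averaged over ages, 2 at 6-9 and 1 at 24-28 weeks, with 7 from 6-9 to 24-28 weeks and 3 from 3-4 to 24-28 weeks. With all probe sets kept, dim ones included, the calls for sex were 0 at 3-4, 3 at 6-9 and 1 and 7 at 24-28 weeks, and 1 cytosolic for the change with age. Without the intensity trend they were 4 mitochondrial averaged over ages, 0 and 2 at 3-4 weeks, 2 cytosolic at 6-9 weeks, 1 and 5 at 24-28 weeks, and 1 and 8 for the change with age. The arrays share only a letter; with it as a replicate block, the count that moved was the cytosolic sex difference at 3-4 weeks, at 0. Without the male arrays at 24-28 weeks the sex calls were 3 and 19 averaged over ages, 0 cytosolic at 3-4 and 3 at 6-9 weeks. Without those at 6-9 weeks they were 1 and 4 averaged over ages and 2 cytosolic at 3-4 weeks, with 10 from 3-4 to 24-28 weeks. In females alone the calls were 1 and 5 from 3-4 to 6-9, 2 and 18 from 6-9 to 24-28, and 2 and 5 from 3-4 to 24-28 weeks; in males alone 7 cytosolic from 3-4 to 6-9 weeks. Rps27 from 6-9 to 24-28 weeks turned to 0.036 in females alone (adjusted p = 0.893).

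Leaving out 1 array at a time, where the lone array of a group is assumed to vary like the other groups, gave these ranges of cytosolic and of mitochondrial calls: sex averaged over ages 0 to 12 and 5 to 10, at 3-4 weeks 0 to 2 and 2 to 7, at 6-9 weeks 1 to 20 and 7 to 13, at 24-28 weeks 1 to 3 and 2 to 9; from 3-4 to 6-9 weeks 2 to 17 and 10 to 16, from 6-9 to 24-28 weeks 6 to 23 and 30 to 37, from 3-4 to 24-28 weeks 3 to 10 and 18 to 22; for the change with age 1 to 18 and 9 to 15. With 2 arrays a group, differences of dim genes such as Mrps16, Rpl39l and Mrps2 are the least precise.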
